A study of Mus musculus with 10 samples.

Results

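Hemoglobin transcripts and the erythroid enzyme gene Alas2 were followed as a measure of blood RNA in heart tissue of male mice. The genes were 5 of the 55335 in the deposited table, namely Hba-a1, Hba-a2, Hbb-bs, Hbb-bt and Alas2. They were chosen by name after the Ensembl identifiers had been matched to symbols, with no filter on expression, and each was listed above 0 in all 10 samples. Values are FPKM, that is, read fragments scaled to transcript length and to the mapped total.

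The hearts came from 5 male offspring samples of dams given anti-Müllerian hormone during pregnancy, labelled PAMH, and 5 male offspring samples of dams given phosphate-buffered saline, labelled control. Mice exposed in this way before birth serve to model polycystic ovary syndrome. Samples of both groups were wild type, and RNA was extracted from heart tissue by the Trizol method. Neither the age and strain of the mice nor any flushing of blood from the hearts is stated in the sources used here. Which animal, litter or dam gave each heart is likewise unstated. The p-values therefore reflect only how far these samples spread, and that spread may be technical.

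Adult hemoglobin is a tetramer of alpha- and beta-globin chains, each carrying haem. Red cells of mammals lose their nucleus, and the youngest circulating ones, the reticulocytes, still carry globin mRNA, so an organ holding blood yields globin transcripts. Alas2 encodes the erythroid form of 5-aminolevulinate synthase, the first enzyme of haem synthesis, whereas Alas1 encodes the form used in other tissues. In RNA from bulk tissue, fewer cells of a type and less RNA per cell cannot be told apart.

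The 4 globin genes lie in a pair of clusters (build GRCm38, GENCODE vM21). Hba-a1 occupies chr11:32283511-32284465 and Hba-a2 chr11:32296489-32297298, both on the plus strand, and Hbb-bt occupies chr7:103812524-103813996 and Hbb-bs chr7:103826534-103828096, both on the minus strand. Each has 3 exons. Alas2 lies at chrX:150547375-150570638 on the plus strand and has 11 exons. Within each cluster the genes are near copies, which limits how far reads can be assigned to one of them. Over the 426 bases of coding sequence Hba-a1 and Hba-a2 differ by 1 base, C381T, counted from 1 at the start of the coding sequence with the base of Hba-a1 first. It is shown in capitals with its surroundings, because it is the one coding position at which their reads can be told apart:
Hba-a1: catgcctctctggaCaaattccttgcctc
Hba-a2: catgcctctctggaTaaattccttgcctc

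The aligned 538 bases of their mature transcripts likewise hold 1 difference, an identity of 99.8%. Hbb-bs and Hbb-bt differ by 1 of 441 coding bases and by 46 of 626 aligned transcript bases, an identity of 92.7%. By contrast, the coding sequences of Hba-a1 and Hbb-bs are 64.1% identical. The sources used here do not say how reads with several matches were assigned. The division of the alpha total between Hba-a1 and Hba-a2, and of the beta total between Hbb-bs and Hbb-bt, is therefore uncertain, while the totals are less exposed to it.

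The upstream sequences are shown beside the levels of these genes. Whether they bear on how the levels moved together across hearts was not tested. RefSeq held an entry for 5 of 5 genes (GRCm38.p6). The 120 bases before the RefSeq start are given 5′ to 3′ on the strand of the gene. Capitals mark matches on either strand to the CACCC box, the CCAAT box, the TATAA element and a GATA element. The GATA element was searched as AGATAA and also AGATAG, and as TGATAA and also TGATAG, and no overlap with another motif was excluded. GENCODE models of all 5 genes begin farther upstream than RefSeq, so every window overlaps the annotated gene in GENCODE. The windows of Hba-a1 (not shown) and Hbb-bs do so over their whole length. That of Hba-a2 does so over its last 3 bases, and those of Hbb-bt and Alas2 in part. The window of Hba-a2 lies at chr11:32296372-32296491 (plus strand), that of Hbb-bs at chr7:103827929-103828048 (minus), that of Hbb-bt at chr7:103813924-103814043 (minus) and that of Alas2 at chrX:150547297-150547416 (plus):
Hba-a2: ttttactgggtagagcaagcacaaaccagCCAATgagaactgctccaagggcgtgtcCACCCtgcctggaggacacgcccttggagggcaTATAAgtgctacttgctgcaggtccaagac
Hbb-bs: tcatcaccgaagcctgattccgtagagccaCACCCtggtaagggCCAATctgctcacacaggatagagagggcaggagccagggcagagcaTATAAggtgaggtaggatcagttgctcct
Hbb-bt: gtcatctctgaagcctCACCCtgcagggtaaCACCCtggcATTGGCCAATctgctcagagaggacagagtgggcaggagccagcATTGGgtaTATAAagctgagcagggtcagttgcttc
Alas2: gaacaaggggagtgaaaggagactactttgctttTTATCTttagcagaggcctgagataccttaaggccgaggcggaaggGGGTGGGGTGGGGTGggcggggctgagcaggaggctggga

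All 4 globin genes had a CACCC box, a CCAAT box and a TATAA element within this distance, with TATAA starting 27 to 30 bases before the RefSeq start. Alas2 had a GATA element 86 bases upstream on the opposite strand and repeats of CACCC, also on the opposite strand, where they read GGGTG. It had no CCAAT. The upstream sequences of Hba-a1 and Hba-a2 are identical over 247 aligned bases, and those of Hbb-bs and Hbb-bt are 73.3% identical. In the 250 bases upstream, a GATA element was present in 26.5% of all 32851 RefSeq promoters, CACCC in 52.0%, CCAAT in 33.8% and TATAA in 22.8%. Over the same 250 bases 4 of the 5 genes had a GATA element, at 183 bases before the start in Hba-a1, 186 in Hba-a2, 210 in Hbb-bs and 86 in Alas2, and Hbb-bt had none. The nearest TATAA of Alas2 was 207 bases upstream. These matches are descriptions of sequence only.

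Both alpha-globin genes varied widely between hearts. Hba-a1 was listed at 60.6, 22.9, 41.1, 197 and 46.2 FPKM in PAMH hearts 1 to 5, against 39.0, 69.6, 24.4, 105 and 54.0 FPKM in control hearts 1 to 5. Hba-a2 was listed at 52.0, 19.9, 37.6, 198 and 42.6 FPKM in PAMH hearts, against 36.6, 61.5, 21.4, 95.2 and 47.8 FPKM in control hearts. For both genes PAMH replicate 4 was the highest of all samples, control replicate 4 the next, and PAMH replicate 2 the lowest, so the groups overlapped over most of their range. Hba-a1 averaged 73.6 ± 70.4 FPKM in PAMH and 58.3 ± 30.8 FPKM in control hearts (SD, n = 5 each). Hba-a2 averaged 70.0 ± 72.4 FPKM in PAMH and 52.5 ± 28.0 FPKM in control hearts (SD, n = 5 each).

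The beta-globin genes followed the same order of samples with few exceptions. Hbb-bs, the most abundant of the globins, was listed at 94.3, 39.4, 76.7, 328 and 84.7 FPKM in PAMH hearts, against 69.0, 111, 46.6, 164 and 97.1 FPKM in control hearts. Hbb-bt was listed at 42.5, 14.8, 32.8, 136 and 34.1 FPKM in PAMH hearts, against 29.2, 48.9, 18.9, 72.1 and 38.8 FPKM in control hearts. The other PAMH hearts lay inside the range of the controls for both genes, except that replicate 2 lay below it. The means of Hbb-bs were 125 ± 116 FPKM in PAMH and 97.4 ± 44.6 FPKM in control hearts, and those of Hbb-bt 52.0 ± 47.9 FPKM in PAMH and 41.6 ± 20.4 FPKM in control hearts (SD, n = 5 each).

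Alas2 was far less abundant. It was listed at 0.707, 0.287, 0.594, 4.10 and 0.745 FPKM in PAMH hearts, against 0.641, 1.14, 0.471, 1.88 and 0.825 FPKM in control hearts. The highest and the lowest values were again in PAMH replicates 4 and 2. The mean was 1.29 ± 1.58 FPKM in PAMH and 0.990 ± 0.554 FPKM in control hearts (SD, n = 5 each). The plot of the 5 genes in each sample shows this shared pattern.

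**Figure D1:**
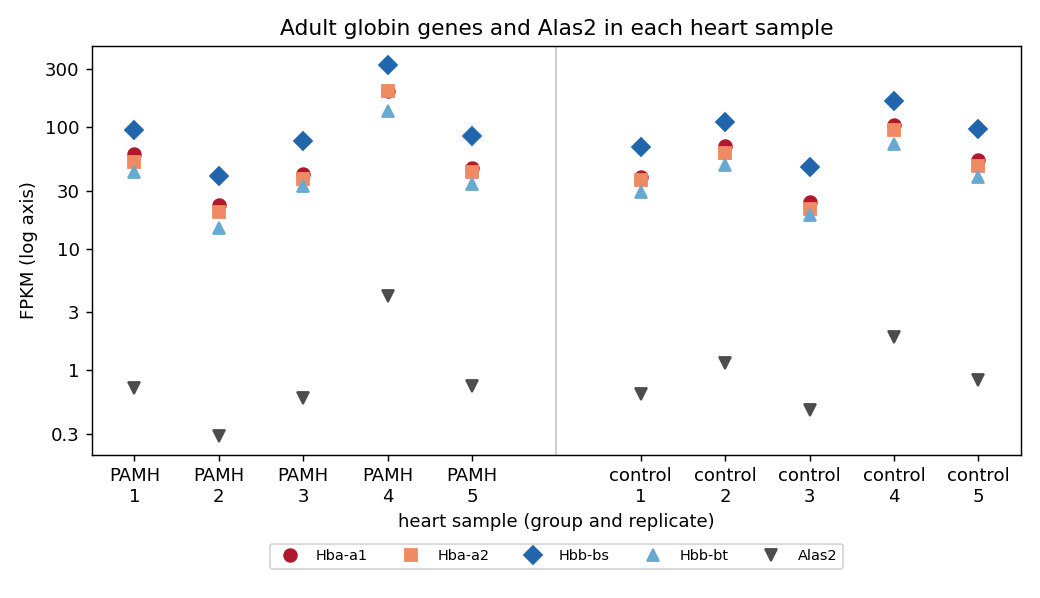
FPKM of Hba-a1, Hba-a2, Hbb-bs, Hbb-bt and Alas2 (log axis) in each of 5 PAMH and 5 control hearts, 1 point per gene and sample. All 5 genes are highest in PAMH replicate 4 (Hbb-bs at 328 FPKM, Alas2 at 4.10 FPKM) and lowest in PAMH replicate 2 (39.4 and 0.287 FPKM).

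None of the 5 genes passed the threshold between PAMH and control hearts. The test was limma on log2(FPKM + 1), with a threshold of 0.05 on the Benjamini-Hochberg adjusted p. It covered the 9439 genes that averaged 1 FPKM or more. Among all genes tested, 6.19% passed, 4.95% being higher and 1.24% lower in PAMH. Nor did any of the 5 reach an unadjusted p under 0.05 by limma, whereas 2264 of the 9439 genes did. The log2 fold change was 0.10 for Hba-a1 (SE 0.50, 95% interval -0.98 to 1.18, limma adjusted p = 0.929) and 0.12 for Hba-a2 (SE 0.52, interval -1.01 to 1.25, adjusted p = 0.912). It was 0.10 for Hbb-bs (SE 0.47, interval -0.92 to 1.12, limma adjusted p = 0.920) and 0.07 for Hbb-bt (SE 0.48, interval -0.98 to 1.12, adjusted p = 0.947). Alas2 had a log2 fold change of 0.04 (SE 0.32, interval -0.65 to 0.73, limma adjusted p = 0.954), on a scale that understates changes at its low level. Its mean over the 10 hearts was 1.14 FPKM, and it passed the filter of 1 FPKM only through PAMH replicate 4, at 4.10 FPKM. The median of the 5 was 0.10, beside 0.07 over all tested genes, and all 5 were positive, as were 67.3% of all tested genes. These intervals are wide. For Hba-a1 it ran from 0.505 to 2.26 as a fold of FPKM + 1, and a difference anywhere within that range cannot be told apart from none with these hearts.

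The spread between hearts was the leading feature of these genes. Only 23 to 30 of the 9439 tested genes had a larger SE than the individual globin genes and 77 a larger one than Alas2, against a median SE of 0.10 over all tested genes. No member had groups that did not overlap, against 8.44% of all tested genes. The sum of the 4 globins was 249, 97.1, 188, 859 and 208 FPKM in PAMH hearts 1 to 5, against 174, 291, 111, 436 and 238 FPKM in control hearts 1 to 5. Within the controls alone the highest sum was 3.91 times the lowest, and among the PAMH hearts other than replicate 4 it was 2.57 times. PAMH replicate 4 held 3.44 times the next PAMH heart and 1.97 times the highest control.

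The direction of the group difference in the globin sum depended on the summary and on single hearts. The mean was 320 ± 306 FPKM in PAMH and 250 ± 124 FPKM in control hearts (SD, n = 5 each), a ratio of 1.28, whereas the medians were 208 FPKM in PAMH and 238 FPKM in control hearts, a ratio of 0.873. Without PAMH replicate 4 the PAMH mean was 186 ± 64.3 FPKM (SD, n = 4), a ratio to the controls of 0.743, while omission of any other heart left the ratio of means above 1. The ratio of medians was 1.01 without control replicate 2 or without control replicate 4, and below 1 without any other heart. Without PAMH replicate 4 the log2 fold changes became -0.36 for Hba-a1, -0.37 for Hba-a2, -0.34 for Hbb-bs, -0.37 for Hbb-bt and -0.30 for Alas2, and none passed the threshold (limma adjusted p from 0.316 for Alas2 to 0.597 for Hba-a1). The interval of Alas2 without that heart was -0.68 to 0.08. The filter was set on all 10 hearts, and without PAMH replicate 4 the mean of Alas2 falls under 1 FPKM. The plot of group differences shows both sets of intervals.

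**Figure D2:**
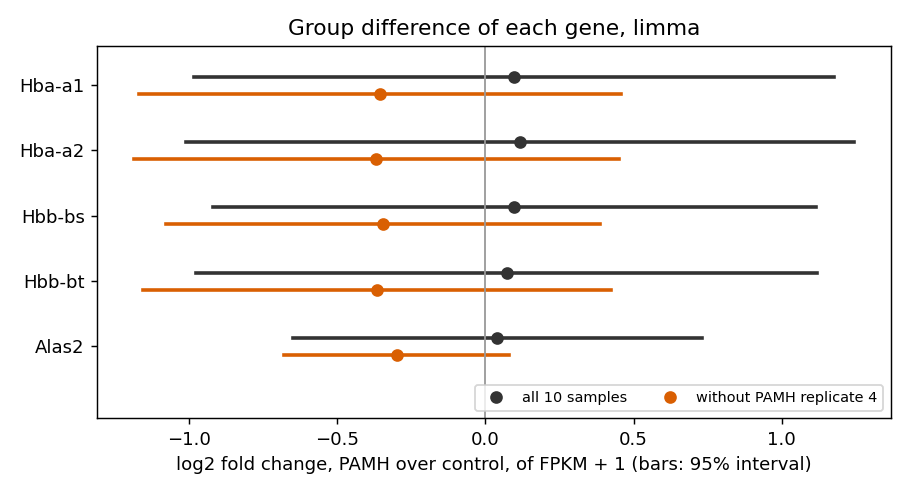
Log2 fold change of FPKM + 1, PAMH over control, for each gene by limma, with bars for the 95% interval, from all 10 samples and without PAMH replicate 4. All 5 estimates are between 0.04 and 0.12 with all samples and between -0.37 and -0.30 without that heart, and every interval includes 0.

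PAMH replicate 4 stood apart in more than blood genes. It was the highest or the lowest of the 10 samples in 51.1% of tested genes, against 10.3% to 21.0% in each of the others. It also had 16113 genes above 0, against 18037 to 21097 in the others. The part of these features in its hemoglobin level was not tested. Relative to the median of the other PAMH hearts, its Hba-a1 was 4.52 times as high, Hba-a2 4.93 times, Hbb-bs 4.07 times, Hbb-bt 4.06 times and Alas2 6.30 times. The globins together held 0.0145% to 0.128% of the summed FPKM of a sample, so they took a small share of any library, including this one.

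While the total varied 8.85-fold between hearts, its composition hardly did. The alpha sum per beta sum was 0.823, 0.790, 0.719, 0.851 and 0.748 in PAMH hearts, against 0.770, 0.822, 0.699, 0.847 and 0.749 in control hearts. Its mean was 0.786 ± 0.0538 in PAMH and 0.777 ± 0.0589 in control hearts (SD, n = 5 each), with a coefficient of variation of 6.83% over the 10 samples, against 78.4% for the globin sum. Hbb-bs supplied 69.0% to 72.6% of the beta total and Hba-a1 49.9% to 53.8% of the alpha total over the 10 samples. The lowest share of Hba-a1 was that of PAMH replicate 4. Alas2 amounted to 2.84, 2.95, 3.16, 4.77 and 3.59 FPKM per 1000 FPKM of globin in PAMH hearts, against 3.69, 3.91, 4.23, 4.31 and 3.47 in control hearts. These values overlapped, averaging 3.46 ± 0.785 in PAMH and 3.92 ± 0.355 in control hearts (SD, n = 5 each).

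**Figure D3:**
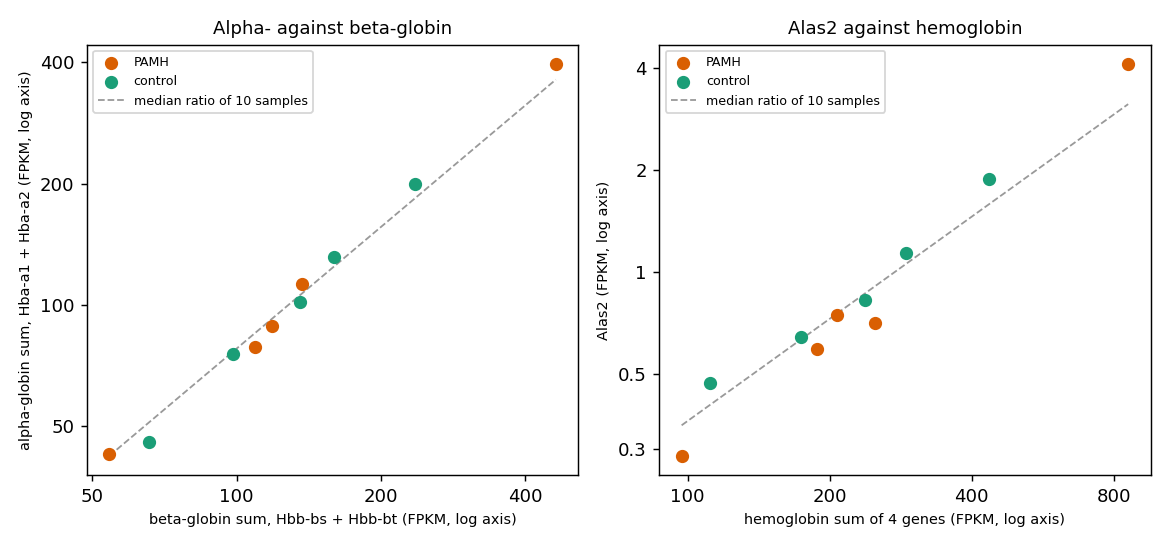
Left, the alpha-globin sum against the beta-globin sum, and right, Alas2 against the sum of 4 globins (FPKM, log axes), 1 point per heart, with a dashed line at the median ratio of the 10 samples. Alpha per beta stays between 0.699 and 0.851 while the globin sum runs from 97.1 to 859 FPKM, with PAMH replicate 4 at the upper end of both plots.

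Across the 10 hearts the 5 genes were closely correlated on the log2(FPKM + 1) scale. Pearson's r was 0.995 to 0.999 and Spearman's rho 0.988 to 1 among the 6 pairs of globins. The 4 pairs with Alas2 had r of 0.951 to 0.964 and rho of 0.952 to 0.976. Every Pearson p of the 10 pairs was 1e-05 by permutation, the smallest that 100000 resamples can give, and the largest adjusted Spearman p was 0.00027 by permutation. Leaving out PAMH replicates 2 and 4, the hearts farthest from the median, left r at 0.992 to 0.998 for the globins and at 0.912 to 0.919 for the pairs with Alas2. Within PAMH hearts alone the globin pairs had r of at least 0.995, and within control hearts at least 0.996. The sharing of reads between near copies can enter the pairs within a cluster, but not the pairs of an alpha with a beta gene or those with Alas2. Hba-a1, Hba-a2 and Hbb-bt put the 10 hearts in the same order.

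Other globins were examined beside them. The embryonic and theta globins were at 0 in every heart for 6 of 7 genes, and Hbq1b was listed at 0.0517 FPKM in control replicate 1 alone. Of the globins outside red cells, myoglobin (Mb), the oxygen store of muscle, averaged 4280 ± 836 FPKM in PAMH and 4709 ± 843 FPKM in control hearts (SD, n = 5 each; log2 fold change -0.14, limma adjusted p = 0.594). Cytoglobin (Cygb) averaged 17.2 ± 1.88 FPKM in PAMH and 15.4 ± 0.844 FPKM in control hearts (adjusted p = 0.304 by limma). Neuroglobin (Ngb) was under the filter and reached 0.154 FPKM. Unlike the hemoglobin genes, Mb was not highest in PAMH replicate 4, where it was 3808 FPKM.

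Transcription factors of red cell formation ranged from near 0 to several FPKM. Of 9 erythroid transcription factors 3 were tested, and none passed the threshold (0 higher, 0 lower; median log2 fold change 0.21). Gata1, the factor that directs erythroid transcription, did not exceed 0.0116 FPKM in any heart, and Klf1, an activator of adult beta-globin, did not exceed 0.0496 FPKM. Tal1, their partner in erythroid complexes, was above 0 in all 10 hearts, between 0.314 and 0.945 FPKM. These were chosen after their values were seen. The 3 tested were Lmo2, Ldb1 and Zfpm1, which are also expressed outside the erythroid lineage. Lmo2 averaged 5.60 ± 1.33 FPKM in PAMH and 3.60 ± 1.15 FPKM in control hearts (SD, n = 5 each; limma adjusted p = 0.0997), and the adjusted p was 0.135 for Ldb1 and 0.573 for Zfpm1.

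The red cell membrane list gave a like picture. Of its 20 genes 8 were tested and none passed (median log2 fold change 0.19). Its most abundant members were Bsg, Tmod1 and Ank1, which heart muscle also expresses, with limma adjusted p of 0.194, 0.657 and 0.0609. The other 12 averaged under 1 FPKM, and 3 of them were at 0 in every heart. The list summed to 445 to 757 FPKM in PAMH and 409 to 607 FPKM in control hearts, and its highest sum was in PAMH replicate 4, where Bsg alone was 646 FPKM.

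Among late erythroid and reticulocyte genes, 19 of 20 were found in the table, 13 were tested and none passed (median log2 fold change 0.05). The most abundant were the antioxidant enzymes Prdx2, Cat and Gpx1, with limma adjusted p of 0.323, 0.263 and 0.703. Hemgn, Car1 and Trim58 were at 0 in every heart.

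Haem synthesis outside Alas2 did not differ past the threshold in any of 12 tested genes of 14 (median log2 fold change 0.12). Alas1 was listed at 21.9, 21.8, 14.3, 28.2 and 16.7 FPKM in PAMH hearts, against 12.9, 15.8, 13.6, 12.9 and 13.7 FPKM in control hearts. Its highest value was in PAMH replicate 4, and the groups overlapped through PAMH replicate 3 and control replicate 2 alone (log2 fold change 0.51, SE 0.15, limma adjusted p = 0.0592). Tmem14c and Slc25a39, which serve mitochondrial transport in haem synthesis, had limma adjusted p of 0.518 and 0.181.

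Genes of haem and hemoglobin clearance included 1 that was higher and 1 that was lower in PAMH among 10 tested of 13 (median log2 fold change 0.03). Fth1, the heavy chain of the iron store ferritin, was 310, 297, 248, 328 and 317 FPKM in PAMH hearts, against 232, 259, 235, 209 and 224 FPKM in control hearts. PAMH replicate 3 lay below the highest control (log2 fold change 0.37, SE 0.09, limma adjusted p = 0.0265). This call was lost in 10 of 20 other settings, with adjusted p up to 0.0962 by limma. Omitting any 1 of PAMH replicates 1, 2 and 5 or control replicates 1, 3, 4 and 5 was enough to lose it (limma adjusted p up to 0.0780). Slc40a1 (ferroportin), the iron exporter, was 0.861, 1.08, 0.779, 0.873 and 0.958 FPKM in PAMH hearts, against 1.44, 1.58, 1.16, 1.61 and 1.74 FPKM in control hearts. All PAMH values lay below all control values (log2 fold change -0.39, SE 0.08, limma adjusted p = 0.0174). The call was lost in 2 of 19 other settings (limma adjusted p 0.0516 without control replicate 5 and 0.0544 with no filter). Ftl1, the ferritin light chain, and Slc48a1, a haem transporter, had limma adjusted p of 0.850 and 0.121. Neither called gene followed the globin sum, with rho of 0.14 for Fth1 and 0.10 for Slc40a1 over the 10 hearts.

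Of the erythropoietin axis, 8 of 9 genes were in the table, 6 were tested, and 1 was higher in PAMH (median log2 fold change 0.03). Cish, a feedback inhibitor of cytokine signalling, was 9.60, 10.9, 8.79, 11.7 and 12.6 FPKM in PAMH hearts, against 5.55, 7.92, 7.60, 3.16 and 6.40 FPKM in control hearts. The groups did not overlap (log2 fold change 0.76, SE 0.18, limma adjusted p = 0.0322), but the call was lost in 9 of 20 other settings, with adjusted p up to 0.117 by limma. These included omission of PAMH replicate 1, 2 or 5 or of control replicate 1 or 5 (limma adjusted p 0.0590 to 0.0749). Stat5b and Bcl2l1 had limma adjusted p of 0.814 and 0.864. Cish had a rho of -0.01 with the globin sum.

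Markers of other blood cells were compared with the globin sum to see whether they moved with it. Platelet markers summed to 9.86 to 19.7 FPKM in PAMH and 8.96 to 12.3 FPKM in control hearts, with the highest sum in PAMH replicate 4. Most of it was Pf4, platelet factor 4, the single tested marker of 12. Pf4 was at 13.6 ± 3.33 FPKM in PAMH and 9.58 ± 1.11 FPKM in control hearts (SD, n = 5 each). Its log2 fold change was 0.44 (limma adjusted p = 0.0882). The other 11 markers averaged under 1 FPKM, so the sum mainly follows Pf4 and was not tested as a measure of platelet content. Neutrophil markers, of which 0 of 14 reached the filter, summed to 0.940 to 5.67 FPKM in PAMH and 0.449 to 3.73 FPKM in control hearts, led by S100a9, S100a8 and Il1b. Their highest sum was in PAMH replicate 3, not in replicate 4, and Ly6g, Camp and Elane were at 0 in every heart. T and NK cell markers, 0 of 12 tested and led by Trac, Cd4 and Gzma, summed to 0.207 to 0.704 FPKM in PAMH and 0.153 to 1.17 FPKM in control hearts. For B cell markers the sums were 2.03 to 3.16 FPKM in PAMH and 2.22 to 4.51 FPKM in control hearts, and Ighm, the single tested one of 10, did not pass (log2 fold change -0.11, limma adjusted p = 0.707).

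Of 10 monocyte markers 3 were tested, and Nr4a1 was higher in PAMH (7.06 ± 1.30 FPKM in PAMH and 3.03 ± 1.55 FPKM in control hearts, SD, n = 5 each; log2 fold change 1.05, SE 0.20, limma adjusted p = 0.0118, lost in 1 of 20 other settings at 0.0585). Nr4a1 is also an immediate early gene in many cell types. The other tested markers were Ace (log2 fold change -0.12) and F13a1 (0.26). Resident cardiac macrophage markers were all tested, and 0 of 11 passed (median log2 fold change 0.20). Limma adjusted p was 0.142, 0.152 and 0.172 for C1qa, C1qb and C1qc, the most abundant. Of the 11, 7 had a positive log2 fold change, these 3 among them. Cd163 (-0.42, limma adjusted p = 0.0741), Folr2 (-0.14), Adgre1 (-0.06) and Csf1r (-0.04) were negative and are named after their values were seen. The plot of summed marker levels sets the lists beside each other.

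**Figure D4:**
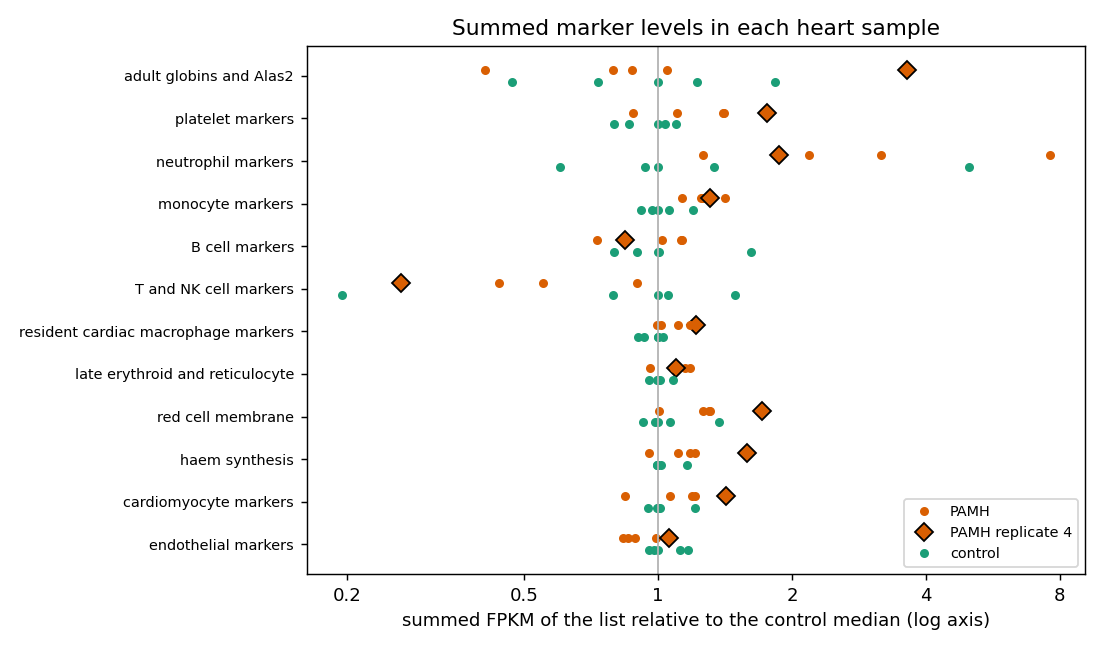
Summed FPKM of each marker or pathway list in each heart, relative to the median of the 5 control hearts (log axis), with 1 point per heart and PAMH replicate 4 as a diamond. In that heart the sum of the globins and Alas2 is 863 FPKM against a control median of 239 FPKM. Platelet markers, mostly Pf4, are 19.7 FPKM there against 11.2 FPKM. T and NK cell markers, none of which reached the filter, are 0.207 FPKM there (Cd4 alone) against 0.784 FPKM. Their sum is as low in PAMH replicate 1 (0.209 FPKM) and lower in control replicate 3 (0.153 FPKM).

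The cells of the heart itself were checked in the same way. Cardiomyocyte markers summed to 7878 to 13303 FPKM in PAMH and 8879 to 11344 FPKM in control hearts, led by Actc1, Myl2 and Myh6, and 0 of 10 tested markers passed (median log2 fold change 0.05). The atrial light chain Myl7 was listed at 1.02 FPKM in PAMH replicate 3 and 0.962 FPKM in PAMH replicate 5, and at 0 in the other 3 PAMH and all 5 control hearts. It was chosen after its values were seen, and its part in any result was not tested. Endothelial markers, 9 of 9 tested, held 1 that was lower in PAMH (median log2 fold change -0.18). This was Cldn5, a tight junction protein, at 3.18, 3.30, 3.31, 5.28 and 3.24 FPKM in PAMH hearts, against 7.31, 8.58, 6.39, 7.83 and 7.43 FPKM in control hearts (log2 fold change -0.88, SE 0.12, limma adjusted p = 0.00200). Every PAMH value lay below every control value, with PAMH replicate 4 nearest to the controls. Cdh5, Pecam1 and Esam, the most abundant of the list, did not pass.

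In all, 20 quantities were correlated with the globin sum over the 10 hearts (16 list sums and 4 ratios within the hemoglobin genes), and none passed after adjustment (smallest adjusted permutation p 0.164 for Pearson and 0.398 for Spearman). The largest r was that of platelet markers, whose sum is mostly Pf4, at 0.74, with rho of 0.66 (permutation p = 0.0150 and 0.0437, adjusted p = 0.164 and 0.437). It was 0.57 without PAMH replicates 2 and 4. Alpha per beta had r of 0.72 and rho of 0.73 (permutation p = 0.0164 and 0.0199, adjusted p = 0.164 and 0.398), and r of 0.44 without those hearts. The summed red cell membrane and late erythroid lists, whose RNA is mostly that of genes heart muscle expresses, had r of 0.41 and 0.06 (permutation p = 0.244 and 0.877).

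The tested genes whose order of hearts was most like that of the globin sum, among 9430 compared, were Alox5 (rho 0.94), Gm43672 (0.93), Isyna1 and Stx5a (0.92 each), and Poc5, Gm47304, Pepd and Ano10 (0.90 each). The next gene had a rho of 0.87, and Alas2 had 0.95. Alox5 was listed at 2.54, 1.73, 1.94, 3.67 and 2.15 FPKM in PAMH hearts, against 1.56, 2.45, 1.54, 2.73 and 2.03 FPKM in control hearts. Its excess in PAMH replicate 4 over the median of all other hearts, controls included, was 1.81-fold. The individual globins were 3.38 to 4.14 times the control median there, and 4.06 to 4.93 times the median of the other PAMH hearts. Over all other hearts, the range for 7 of these 8 genes was 1.10 to 1.81. The exception was Gm47304, annotated as a miRNA gene, at 30.5-fold over values near 0.1 FPKM in some hearts. None of the 8 passed the threshold between the groups. These rank correlations are descriptions, since the 8 genes are the extreme of 9430.

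Fitting the globin sum of each heart as a covariate left most calls of the whole table in place. With it, limma called 682 genes (547 higher and 135 lower in PAMH), against 584 (467 higher and 117 lower) without it. Of the 584, 574 were called in both fits, 98.3%. The globin sum differed little between the groups beside its spread (320 ± 306 FPKM in PAMH and 250 ± 124 FPKM in control hearts, SD, n = 5 each). The covariate could therefore change group differences only a little. Whether blood content bears on the calls was not tested by this fit. The covariate setting was chosen after the data had been seen.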

How the data were processed

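The values, as the authors deposited them, are FPKM for 55335 Ensembl genes in 10 samples, 5 PAMH and 5 control. Per the submitters' processing notes, the study used HISAT2 2.2.1 and HTSeq 0.13.5, with DESeq2 1.18.1 in R 3.4.1, as well as Trimmomatic 0.38 and FastQC 0.11.9, on build mm10. Which of them did what, how the FPKM were made, the strand setting and the handling of multiply matching reads are unstated in the sources used here. FPKM hold no read counts, so the depth is unknown, and a gene at 0 is one listed at 0. Each sample's FPKM total was 654350 to 717453.

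Symbols and coordinates came from GENCODE vM21 (55154 identifiers matched, 181 did not), and promoter sequences from RefSeq (GRCm38.p6). The 9439 genes that averaged 1 FPKM or more were tested on log2(FPKM + 1) with limma 3.58.1 in R 4.3.3 (group term, intensity trend, 2-sided, Benjamini-Hochberg). The procedure was tested on simulated data. Correlations used 100000 permutations in SciPy 1.17.1, sequence alignments Biopython 1.88, and figures matplotlib 3.10.9 in Python 3.11.15. No test was run on a sum or ratio of the hemoglobin genes between groups.

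The members and gene lists were chosen with earlier results of these data known. Named genes were the 5 members, every called gene and the 3 most abundant of each list, and the 8 genes most like the globin sum by rho. Some genes of the lists are not reported here. Genes chosen after their values were seen are identified as such, apart from those named because they were at 0. The labels do not say whether replicate numbers pair samples, and the main fit did not pair them. Only some same-numbered samples deviated together, which does not settle it. Alternatives covered the pseudocount (0.1), the filter (none, or 5 FPKM), rescaling and normalization, sample weights, a replicate block, and leaving out each sample. The fit with the globin sum as covariate was added after seeing the data.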

Additional observations from a re-analysis of the deposited data

Results flagged for a closer look

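Each quantity was checked in each group of 5 hearts for a single value far from the others (a gap over 0.71 of the range). Of 124 groups checked 20 held one (16.1%). Chance gives about 1 in 20 only where values are normally distributed. The check was made on values that were not log-transformed, and Hbq1b was flagged although only control replicate 1 had a value for it. The chance rate for these quantities is therefore unknown, and the 16.1% does not show an excess of outlying values. PAMH replicate 4 held 9 of the 20. It was the high value for Hba-a1 (197 FPKM), Hba-a2 (198 FPKM), Hbb-bs (328 FPKM), Hbb-bt (136 FPKM), Alas2 (4.10 FPKM), the alpha sum (395 FPKM), the beta sum (464 FPKM) and the globin sum (859 FPKM), which share their reads or genes and are not independent, and for Cldn5 (5.28 FPKM).

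PAMH replicate 3 was the low value for Zfpm1 (2.07 FPKM), Gpx1 (26.2 FPKM) and Stat5b (8.52 FPKM) and the high value for S100a8 (2.11 FPKM). Control replicate 2 was high for Alas1 (15.8 FPKM), Myh6 (1810 FPKM) and Actc1 (4535 FPKM). Control replicate 4 was high for S100a9 (1.75 FPKM), control replicate 5 for Nr4a1 (5.72 FPKM) and Ngb (0.154 FPKM), and control replicate 1 for Hbq1b (0.0517 FPKM).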

How the results depend on the processing

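No hemoglobin gene passed the threshold under any of 19 other settings (limma adjusted p 0.316 to 0.998), but the sign of their group difference was not stable: it changed in 24 of 94 results. It became negative with quantile normalization for Hba-a1 (-0.054), Hba-a2 (-0.038), Hbb-bs (-0.021) and Hbb-bt (-0.082), with median ratio scaling for Hbb-bt (-0.0091), with a pseudocount of 0.1 for Alas2 (-0.063), and with sample weights for Hba-a1 (-0.10), Hba-a2 (-0.12), Hbb-bs (-0.14), Hbb-bt (-0.16) and Alas2 (-0.15). The cause was not tested. Omitting 1 sample gave log2 fold changes from -0.36 to 0.41 for Hba-a1, -0.37 to 0.44 for Hba-a2, -0.34 to 0.41 for Hbb-bs, -0.37 to 0.41 for Hbb-bt and -0.30 to 0.20 for Alas2, the lowest always without PAMH replicate 4. Omitting control replicate 3 also turned all 5 negative, and omitting control replicate 1 turned Hba-a1, Hbb-bt and Alas2. A filter at 5 FPKM leaves Alas2 without a value.

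Over all genes the 584 calls became 264 with no filter, 1214 with sample weights and 239 with the replicate block, and 278 to 1126 when 1 sample was omitted (311 without PAMH replicate 1, 1126 without PAMH replicate 3, 345 without PAMH replicate 5, 302 without control replicate 1, 278 without control replicate 3, 305 without control replicate 4 and 297 without control replicate 5). Not every sample correlated best with its own replicate number, and the labels give a shared number no meaning. Of the 8 genes most like the globin sum by rank, 4 remained by Pearson's r and 1 by r without the 2 farthest hearts. Lists with no call gained 1 or 2 under some settings, among them haem synthesis and red cell membrane (2 each without PAMH replicate 3), platelet markers (1 without PAMH replicate 2), erythroid factors (1 without PAMH replicate 1), cardiomyocyte markers (1 without PAMH replicate 2 or 3) and macrophage markers (1 without PAMH replicate 4). The unknown depth gives no limit for genes listed at 0.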
